A study of Homo sapiens with 8 samples.

Results

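All 8 libraries of the series (8 of 8) were read here as a 2 by 2 design, trametinib absent or present by panobinostat absent or present, to ask where the effect of both drugs together departs from the sum of their separate effects. The cells were 92.1, an established human uveal melanoma line, treated for 24 h. The 4 groups were vehicle (DMSO), 10 nM trametinib, 10 nM panobinostat and the combination, with 2 libraries each. The treatment label of the panobinostat libraries also calls that drug a MEK inhibitor, and the drug name was followed. The label of the combination gives 10 nM once for both drugs, and every value below assumes that this was the dose of each. Whether the 2 libraries of a group were grown separately is stated nowhere, and the p-values therefore reflect library-to-library spread alone, possibly technical. In RNA from whole cultures, fewer cells of a kind and less RNA per cell cannot be told apart.

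For each gene the interaction was the mean log2(normalised value + 1) of the combination, minus that of trametinib, minus that of panobinostat, plus that of vehicle. An interaction of 0 means that the fold changes of the 2 drugs multiplied, a positive one that the combination lay above that product (above additive), and a negative one that it lay below it (below additive). The same number is also the change of the trametinib effect when panobinostat is present, and the change of the panobinostat effect when trametinib is present.

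Trametinib blocks the kinases MEK1 and MEK2, which carry the growth signal from mutant G alpha q proteins through RAF to ERK in uveal melanoma. ERK in turn drives cyclin D, MYC and entry into the cell cycle, together with its own phosphatases and Sprouty inhibitors. Panobinostat blocks histone deacetylases, so that histones and other proteins stay acetylated, and the transcription of many genes rises or falls. Pigment cell genes are controlled by MITF and SOX10, and both kinds of drug are known to act on these genes in melanocytic cells.

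The recovered depth was 6897784 to 16861001 reads per library. Of the 18406 genes in the table, 13320 had a mean of 10 or more and entered the tests. Replicates correlated at r = 0.991 in vehicle, 0.897 after trametinib, 0.982 after panobinostat and 0.974 after both. The second trametinib library stood apart: 858 tested genes were at 0 in it, against 163 in the first and 13 to 38 in the other 6, and the lists' counts of interaction calls that moved by over 1.5 times without it are given both ways. The nuclear RNA MALAT1 took 4.19% and 4.23% of all values in vehicle, 6.85% and 7.91% after trametinib, 8.29% and 8.78% after panobinostat, and 11.9% and 12.2% after both. Its part in the results was not tested. All 7 melanocytic markers were measured. Their summed value, mostly from TYRP1 and PMEL, was 111479 and 103558 in vehicle, 167229 and 175142 after trametinib, 99938 and 103741 after panobinostat, and 137486 and 138966 after both. Summed epithelial markers (3 of 5 in the table) stayed at or below 80.6 in each library. Summed endothelial markers (5 of 6 in the table), mostly from EMCN, were 488 and 447 in vehicle, 282 and 297 after trametinib, 489 and 512 after panobinostat, and 425 and 402 after both, with CDH5 at 0 in all 8. EMCN itself lay above additive (1.04, limma adjusted p = 0.0288). Summed immune markers (4 of 6), mostly from CD68, which lysosomes of many cells hold, were 699.9 and 673 in vehicle, 919.7 and 763 after trametinib, 1506 and 1571 after panobinostat, and 1048 and 946 after both. CD68 lay below additive (-1.05, limma adjusted p = 0.000841), and PTPRC, the defining immune gene, was at most 11.7. The part of these markers in the results was not tested.

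Of the 13320 genes, 2565 departed from additivity (19.3%) by limma at a Benjamini-Hochberg adjusted p under 0.05. The combination lay above additive for 1361 of them (10.2%) and below for 1204 (9.04%). With a size of at least 2-fold, 773 genes (5.8%) lay above and 437 (3.28%) below. Centring each library on its median moved the median interaction of all genes from 0.08 to -0.06, and the calls to 1044 above and 1777 below, so the share above fell from 53.1% to 37.0% of calls. Without the second trametinib library the median interaction of all genes was 0.014. That fit holds 1 trametinib library, so the spread of this group drops out. A call kept there is therefore no check of the call. Leaving out each of the 8 libraries in turn, 549 of the 1361 and 593 of the 1204 kept their call each time. For 5217 genes (39.2%) the 95% interval of the interaction lay within 2-fold of additive on both sides.

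The sign of the interaction itself favours some orders of the 4 group means over others, so the orders of the called genes are given as a description. Among the genes above additive, vehicle was the highest of the 4 group means in 982 (72.2%, against 31.4% of all tested genes) and trametinib the lowest in 1056 (77.6%, against 30.6%). Among the genes below additive, vehicle was the lowest in 814 (67.6%, against 31.7%) and trametinib the highest in 889 (73.8%, against 27.4%). In both kinds the combination mean most often lay between the 2 single drugs, in 743 (54.6%) of the first and 609 (50.6%) of the second, against 43.6% of all genes. The effects of each drug had these backgrounds: trametinib alone raised 23.7% and lowered 27.4% of genes, and trametinib on top of panobinostat raised 10.9% and lowered 13.1%. Panobinostat alone raised 15% and lowered 15.6%, and panobinostat on top of trametinib raised 17.6% and lowered 15.2%. The drug comparisons share libraries, so their counts are given side by side only. By their numbering in the deposit, the panobinostat and combination libraries were added as a set to those of vehicle and trametinib. Whether both sets were prepared together is not stated, so effects of panobinostat cannot be told apart from a difference between sets. A shift shared by both groups of a set cancels in the log2 interaction.

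**Figure D1:**
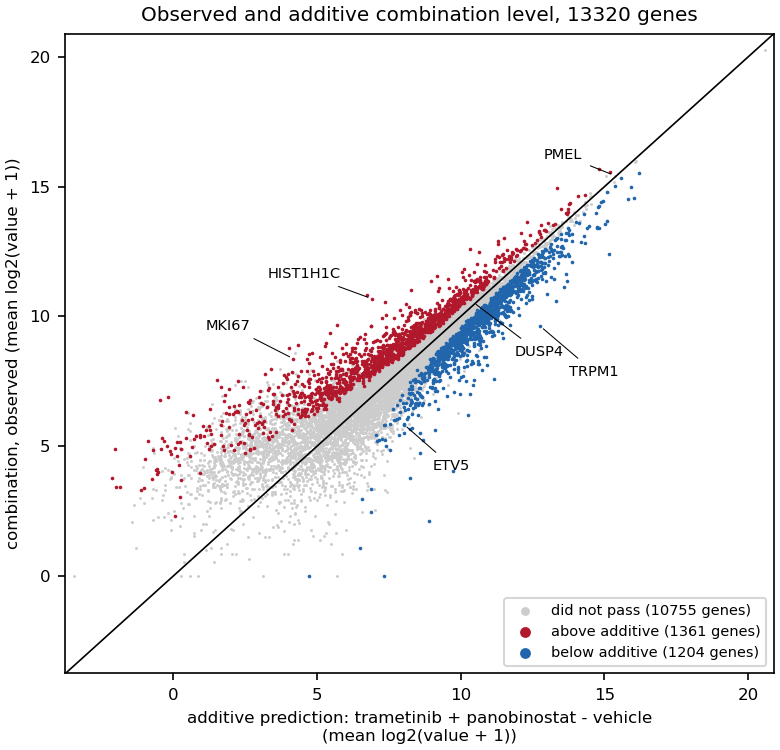
Observed combination level of each tested gene against its additive prediction, both as mean log2(value + 1), with the diagonal marking additivity. Red points are the 1361 genes called above additive, blue points the 1204 called below, and grey points did not pass. MKI67 and HIST1H1C lie far above the diagonal, TRPM1 and ETV5 far below, and DUSP4 and PMEL on it.

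The gene lists differed in direction. Division, DNA replication and histone genes lay above additive, and pigment and melanocyte lineage genes below, while most other lists had medians between -0.5 and 0.5 on the log2 scale. The median over all genes tested was 0.08, or 0.014 without trametinib replicate 2 and 0.00090 by edgeR. Counts of calls depended on the libraries used: with each left out in turn 617 to 3690 genes lay above and 690 to 2525 below, most without trametinib replicate 1, and fewest above without vehicle replicate 1 and below without panobinostat replicate 1. Where the counts of a list moved by over 1.5 times, brackets give them without trametinib replicate 2. The ranges above and below with each library left out follow. Every such fit leaves 1 group with 1 library, and counts without a trametinib library omit the spread of that group.

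**Figure D2:**
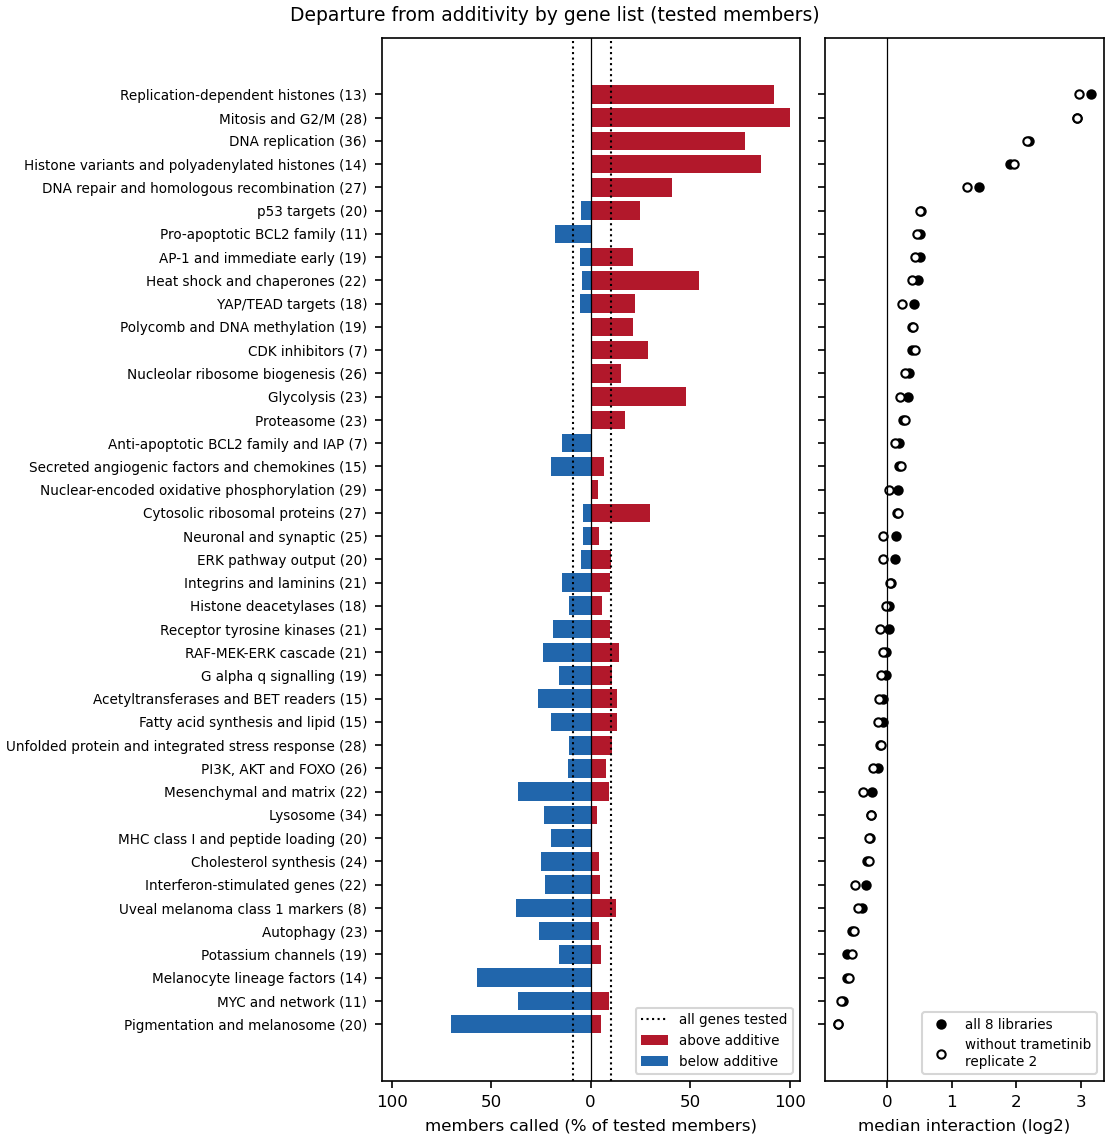
Left, the share of tested members of each list called above (red) or below (blue) additive in percent, with the share over all genes tested as dotted lines. Right, the median interaction (log2) with all 8 libraries (filled) and without trametinib replicate 2 (open). The number of tested members is in brackets, and lists with at least 7 are shown.

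Every tested mitotic gene departed in 1 direction. All 28 tested members lay above additive, against 10.2% of all genes, with a median interaction of 2.94 with or without the second trametinib library, and 23 of the 28 kept the call when any 1 library was left out. Trametinib alone lowered all 28 (27.4% of all genes) with a median change of -3.63, and panobinostat alone lowered 25 (15.6%) with a median of -1.37. On top of trametinib, panobinostat raised 24 of the 28 (17.6%), with a median of 1.67. On top of panobinostat, trametinib still lowered 9 (13.1%), with a median of -0.63. The mean was lowest with trametinib alone in 27 of the 28.

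A promoter element may be set beside this list. The cell cycle genes homology region (CHR), TTTGAA, is the element through which the MuvB complexes repress and activate late cell cycle genes. In windows of 300 bases around RefSeq starts (250 before to 50 after, GRCh38.p14), TTTGAA on either strand was in 17 of 24 windows of the mitotic genes, which matched 22 of the 28 symbols, or 70.8%. It was in 15.2% of all 35116 windows and in 1 of 40 windows (2.5%) of the DNA replication genes, 7 of 27 (25.9%) of the pigment genes and 1 of 29 (3.45%) of the lysosome list. A match is a description of letters, not a site. The 60 bases before the start are shown for 3 mitotic genes of this account, with TTTGAA or its complement in capitals. They were chosen after the matches were seen, and are from chr10:128126424-128126483 (minus strand), chr10:92593070-92593129 (plus strand) and chr15:40161009-40161068 (plus strand).
MKI67: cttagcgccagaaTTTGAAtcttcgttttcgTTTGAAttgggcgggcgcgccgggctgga
KIF11: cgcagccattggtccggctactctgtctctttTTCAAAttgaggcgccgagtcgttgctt
BUB1B: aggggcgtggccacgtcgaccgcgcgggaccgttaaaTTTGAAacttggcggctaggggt

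MKI67 encodes the proliferation marker Ki-67, which coats mitotic chromosomes. Vehicle libraries held 2106 and 1906, trametinib libraries 54.2 and 56.3, panobinostat libraries 647 and 646 and combination libraries 335 and 327. The groups did not overlap, trametinib was lowest and the combination lay between the 2 drugs, at 18.3 times the additive prediction of 17.2. MKI67 had an interaction of 4.19 with an SE of 0.18 (limma adjusted p = 3.46e-06). Trametinib changed it by -5.16 without panobinostat and by -0.96 with it (log2), and panobinostat by -1.63 without trametinib and by 2.56 with it. KIF11 encodes the kinesin that pushes spindle poles apart. It stood at 1079 and 1079.9 in vehicle cells, 42.1 and 26.1 after trametinib, 324 and 349 after panobinostat and 246 and 256 after both drugs. The prediction was 9.68, and the combination libraries lay far above both trametinib libraries and below both panobinostat libraries. For KIF11, limma gave an interaction of 4.56 (SE 0.31, adjusted p = 2.68e-05). CENPF, a kinetochore protein, had the same order of groups. CENPF measured 2606 and 2287 in vehicle, 60.2 and 84.4 under trametinib, 688 and 672 under panobinostat and 464 and 505 under both. CENPF's interaction was 4.59 with an SE of 0.23 (limma adjusted p = 6.61e-06). BUB1B, the spindle checkpoint kinase, had an interaction of 5.28 that fell to 3.47 without trametinib replicate 2, which held a value of 2.01. Its call ended without any 1 of 6 libraries, with a limma adjusted p of up to 0.0938 without combination replicate 2.

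DNA replication genes lay above additive too, where 10.2% of all genes lay. Of 36 tested members 28 were called above and none below (34 above and 0 below without trametinib replicate 2, and 15 to 35 and 0 over the 8 libraries left out in turn), with a median of 2.19, and 15 kept the call with any 1 library left out. Trametinib alone lowered all 36 (27.4% of all genes) and panobinostat alone 28 (15.6%). Panobinostat on top of trametinib raised 5 (17.6% of all genes) and lowered 2 (15.2%), and trametinib on top of panobinostat lowered 18 (13.1%). PCNA encodes the sliding clamp of DNA polymerases. The values were 1779.7 and 1678 in vehicle, 233 and 181 in the trametinib group, 558 and 568 in the panobinostat group and 334 and 386 in the combination. Its combination libraries lay between the other drug groups, without overlap. PCNA departed by an interaction of 2.42 (SE 0.20, limma adjusted p = 7.88e-05). MCM7 is part of the helicase loaded at origins. Vehicle libraries held 1564 and 1365, trametinib libraries 128 and 104, panobinostat libraries 284 and 301 and combination libraries 104 and 109.5. The combination and trametinib libraries overlapped, and their means differed by -0.12 on the log2 scale (limma adjusted p = 0.631). MCM7 had an interaction of 2.2 with an SE of 0.24 (limma adjusted p = 0.000305). RRM1, the large subunit of ribonucleotide reductase, had its combination libraries between the single drugs. It stood at 1218 and 1271 in vehicle cells, 212 and 272 after trametinib, 427 and 385 after panobinostat and 294 and 318 after both drugs. For RRM1, limma gave an interaction of 1.96 (SE 0.21, adjusted p = 0.000268).

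**Figure D3:**
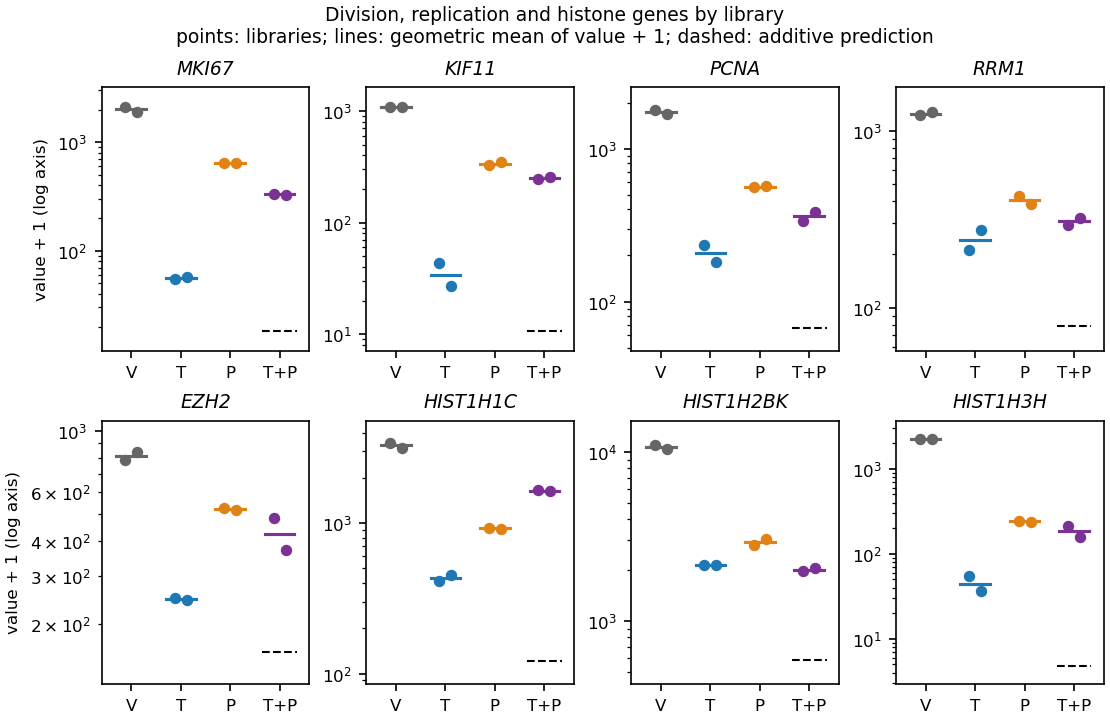
Normalised value + 1 (log axis) in each library for 8 division, replication and histone genes, with vehicle (V), trametinib (T), panobinostat (P) and both (T+P). Points are libraries, lines geometric means of value + 1, and the dashed line is the additive prediction. The combination points lie above the dashed line in all 8 panels.

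Some DNA repair genes lay above additive, where 10.2% of all genes lay. Of 27 tested, 11 lay above additive and none below (19 above and 1 below without trametinib replicate 2, and 7 to 19 and 0 to 1 over the 8 libraries left out in turn), with a median of 1.42, and 7 kept the call with any 1 library left out. EXO1, the exonuclease of mismatch repair and end resection, was lowest with trametinib. EXO1 measured 1433 and 1499 in vehicle, 19.1 and 20.1 under trametinib, 314 and 359 under panobinostat and 59.7 and 111 under both. EXO1's interaction was 4.13 with an SE of 0.40 (limma adjusted p = 0.000157). BRCA1, of homologous recombination, had lower values in the combination than with either drug alone, but its difference from both drugs did not pass. The values were 1267 and 1308 in vehicle, 225 and 206 in the trametinib group, 296 and 324 in the panobinostat group and 188 and 159.7 in the combination. BRCA1 departed by an interaction of 1.75 (SE 0.20, limma adjusted p = 0.000446). PARP1, which signals strand breaks, was lowest with trametinib and had a smaller departure. Vehicle libraries held 3542 and 3539, trametinib libraries 1733 and 1897, panobinostat libraries 2233 and 2273 and combination libraries 2082 and 2086. PARP1 had an interaction of 0.85 with an SE of 0.09 (limma adjusted p = 0.000331).

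Of 19 Polycomb and DNA methylation genes, EZH2, DNMT1, UHRF1 and CBX2 lay above additive and none below (7 above and 2 below without trametinib replicate 2, and 3 to 9 and 0 to 2 over the 8 libraries left out in turn), with a median of 0.39. Of all genes tested, 10.2% lay above and 9.04% below. EZH2 encodes the H3K27 methyltransferase. It stood at 785 and 834 in vehicle cells, 248 and 243 after trametinib, 526 and 516 after panobinostat and 484 and 371 after both drugs. Trametinib alone was lowest and the combination spread between 371 and 484, below both panobinostat libraries. For EZH2, limma gave an interaction of 1.42 (SE 0.20, adjusted p = 0.00131). UHRF1, which guides DNMT1 to newly copied DNA, had its lowest values in the combination, but its difference from both drugs did not pass. UHRF1 measured 1896 and 1845 in vehicle, 188 and 214 under trametinib, 407 and 416 under panobinostat and 138 and 161 under both. UHRF1's interaction was 1.76 with an SE of 0.20 (limma adjusted p = 0.000333). The call of CBX2 ended without any 1 of 6 libraries, with a limma adjusted p of up to 0.126 without vehicle replicate 1.

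Histone genes also lay above additive, against 10.2% of all genes. Near-identical copies make single members uncertain, since the counting may have split their reads. Of 13 tested replication-dependent histones 12 lay above additive, with a median of 3.16, and 9 kept the call with any 1 library left out. Of 14 histone variants and histones with polyadenylated transcripts, 12 lay above, with a median of 1.90, and 10 kept it. Trametinib alone lowered 13 of 13 and 11 of 14, against 27.4% of all genes. HIST1H1C encodes a linker histone that is also made outside S phase. The values were 3391 and 3175 in vehicle, 408 and 448 in the trametinib group, 925 and 919 in the panobinostat group and 1657 and 1632 in the combination. Its combination libraries lay above both single drugs, at 13.7 times the prediction of 119. HIST1H1C departed by an interaction of 3.77 (SE 0.12, limma adjusted p = 9.29e-07). Panobinostat thus changed it by -1.83 alone and by 1.94 on top of trametinib. HIST1H2BK, an H2B gene with polyadenylated transcripts, had its lowest values in the combination, but its difference from both drugs did not pass. Vehicle libraries held 11019 and 10325, trametinib libraries 2140.2 and 2138, panobinostat libraries 2812 and 3050.2 and combination libraries 1968 and 2045. All 6 drug libraries lay between 1968 and 3050.2, and the combination lay at 3.41 times its prediction of 587. HIST1H2BK had an interaction of 1.77 with an SE of 0.09 (limma adjusted p = 6.82e-06). HIST1H1E, another linker histone, had overlapping values with panobinostat and with both drugs. It stood at 12709 and 12253 in vehicle cells, 2948 and 2468 after trametinib, 6215 and 5772 after panobinostat and 6387 and 5933 after both drugs. For HIST1H1E, limma gave an interaction of 2.25 (SE 0.12, adjusted p = 7.28e-06). HIST1H3H, an H3 gene of the main cluster, was among the largest departures. HIST1H3H measured 2261 and 2215 in vehicle, 53.2 and 35.2 under trametinib, 243 and 238 under panobinostat and 212 and 158 under both. HIST1H3H's interaction was 5.27 with an SE of 0.32 (limma adjusted p = 1.26e-05).

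Pigment genes went the other way. Of 20 tested, 14 lay below additive, against 9.04% of all genes, and 1 above, with a median of -0.76 with or without the second trametinib library, and 11 of the 14 kept the call with any 1 library left out. Means of at least 200 were held by 18 of the 20. Of all genes, 9.28% lay below at means of 200 to 1000 and 26.2% at means of 1000 or more. The part of expression level was not tested. Trametinib alone raised 16 (23.7% of all genes) with a median change of 0.83. On top of panobinostat it raised 8 (10.9%) and lowered 5 (13.1%), with a median of 0.13. On top of trametinib, panobinostat lowered 15 (15.2%), with a median of -0.90, against 6 (15.6%) and -0.12 for panobinostat alone.

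TRPM1 encodes melastatin, a cation channel of melanocytes whose transcript carries a microRNA that MITF controls. The values were 1586 and 1662 in vehicle, 8151 and 7512 in the trametinib group, 1529 and 1360.2 in the panobinostat group and 896 and 699.8 in the combination. Only the trametinib libraries were high, and both combination libraries lay below vehicle and both single drugs. Its call below both drugs did not hold with each library left out. TRPM1 departed by an interaction of -3.13 (SE 0.16, limma adjusted p = 6.82e-06). The trametinib effect was 2.27 without panobinostat and -0.86 with it (log2). MLPH, the linker between RAB27A and the myosin that carries melanosomes, rose with trametinib alone. Vehicle libraries held 657 and 690.4, trametinib libraries 2352 and 2188, panobinostat libraries 685 and 655 and combination libraries 683 and 672. The other 6 libraries lay within 655 to 690.4. MLPH had an interaction of -1.74 with an SE of 0.12 (limma adjusted p = 3.36e-05). MYO5A, that myosin, was also highest with trametinib alone. It stood at 2849.8 and 2906 in vehicle cells, 8914 and 9101 after trametinib, 2239 and 2347 after panobinostat and 3060.2 and 2916 after both drugs. For MYO5A, limma gave an interaction of -1.26 (SE 0.08, adjusted p = 2.04e-05). The tyrosinase family was uneven. TYR, the rate-limiting enzyme of melanin synthesis, was high with trametinib alone as well. TYR measured 1588 and 1534 in vehicle, 2726 and 2972 under trametinib, 1745 and 1789 under panobinostat and 1589 and 1413 under both. TYR's interaction was -1.10 with an SE of 0.11 (limma adjusted p = 0.000233). DCT, which acts later in that synthesis, was at most 14.4 with vehicle or panobinostat. The values were 14.4 and 4.75 in vehicle, 1984 and 1912 in the trametinib group, 5.10 and 10.1 in the panobinostat group and 258 and 236 in the combination. It thus rose with trametinib in either setting, by 7.69 alone and 4.91 on top of panobinostat. DCT departed by an interaction of -2.78 (SE 0.68, limma adjusted p = 0.0204). That call ended without any 1 of 4 libraries, with an adjusted p of up to 0.0960 without combination replicate 2. PMEL, which forms the fibrils of the melanosome, lay near the product of the single effects. Vehicle libraries held 37252 and 36220.1, trametinib libraries 50705 and 53493, panobinostat libraries 28666 and 30566 and combination libraries 42296 and 45795. PMEL thus had an interaction of 0.07, with a 95% interval of -0.11 to 0.25 (limma adjusted p = 0.586). TYRP1, the related oxidase, was also near it. It stood at 52639 and 46045 in vehicle cells, 77991 and 80168 after trametinib, 43182 and 45104 after panobinostat and 64632 and 63691 after both drugs. The interaction of TYRP1 was -0.14 with a 95% interval from -0.34 to 0.05 (limma adjusted p = 0.291). QPCT, a glutaminyl cyclase, was the 1 member above additive. QPCT measured 882 and 833 in vehicle, 259.8 and 309 under trametinib, 1049 and 984 under panobinostat and 1285 and 1142 under both. QPCT had an interaction of 1.85 with an SE of 0.17 (limma adjusted p = 0.000112). TYR, DCT, PMEL, TYRP1 and QPCT were named after their values were seen.

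Promoter letters were also counted for this list. MITF binds E-boxes of the form CATGTG. That word was in 10 of 27 windows of the pigment genes on either strand (37.0%, 16 of 20 symbols matched), in 11.1% of all windows in 4 of 29 windows of the lysosome list (13.8%), in 1 of 24 of the mitotic genes (4.17%) and in 2 of 40 of the DNA replication genes (5.0%). The bases before the start of 3 of the genes above are shown with the word or its complement in capitals, from chr15:31101726-31101845 (minus strand), chr11:89177755-89177874 (plus strand) and chr13:94479683-94479842 (minus strand). For TRPM1 and DCT, which have 2 listed starts each, the second is shown, chosen because it held the word.
TRPM1: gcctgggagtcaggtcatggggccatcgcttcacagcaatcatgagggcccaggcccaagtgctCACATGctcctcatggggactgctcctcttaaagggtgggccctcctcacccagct
TYR: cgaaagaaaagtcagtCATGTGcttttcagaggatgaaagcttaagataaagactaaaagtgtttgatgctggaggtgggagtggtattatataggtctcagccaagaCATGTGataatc
DCT: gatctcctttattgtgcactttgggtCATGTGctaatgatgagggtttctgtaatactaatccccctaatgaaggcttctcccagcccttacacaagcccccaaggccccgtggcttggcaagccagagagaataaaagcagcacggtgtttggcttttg

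The regulators of the lineage lay below additive as well. Of 14 tested, 8 were below and none above (1 above and 8 below without trametinib replicate 2, and 0 to 1 and 6 to 11 over the 8 libraries left out in turn), with a median of -0.63, and 6 kept the call with any 1 library left out. Trametinib alone raised 12 (23.7% of all genes) and panobinostat alone raised 9 (15%). Of all genes 9.04% lay below, and 26.2% of those with means of 1000 or more. Means of at least 200 were held by 12 of the 14. The part of expression level was not tested. MITF is the master regulator of melanocytes. The values were 4158 and 4070.1 in vehicle, 8362 and 8592 in the trametinib group, 5343 and 5099 in the panobinostat group and 4184 and 4336 in the combination. It was highest with trametinib alone, and both combination libraries lay just above vehicle. For MITF, limma gave an interaction of -1.34 (SE 0.08, adjusted p = 1.05e-05). EDNRB, the endothelin receptor of melanoblasts, was far higher with trametinib than in any other group. Vehicle libraries held 812 and 799, trametinib libraries 7236 and 8447, panobinostat libraries 976 and 1133 and combination libraries 1572 and 1494. EDNRB's interaction was -2.73 with an SE of 0.14 (limma adjusted p = 6.61e-06). TFAP2A, a partner of MITF at its target genes, rose in all 3 drug groups. It stood at 13687 and 13580.0 in vehicle cells, 36314 and 38816 after trametinib, 20784 and 21503 after panobinostat and 24212 and 22484 after both drugs. TFAP2A departed by an interaction of -1.32 (SE 0.08, limma adjusted p = 1.07e-05). SOX10, which switches on MITF, overlapped between the combination and trametinib. SOX10 measured 10554 and 10220.0 in vehicle, 17632 and 19962 under trametinib, 15788 and 16174 under panobinostat and 20061 and 19340.0 under both. SOX10 had an interaction of -0.55 with an SE of 0.09 (limma adjusted p = 0.00226). Summed values of the retinal pigment epithelium markers, mostly from BEST1, moved with trametinib too, at 197 and 191 in vehicle, 782 and 794 after trametinib, 305 and 350 after panobinostat, and 770.3 and 706 after both, and their part in the result was not tested. RPE65, their defining gene, was at 0 in 6 libraries and at most 4.68 in the combination.

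**Figure D4:**
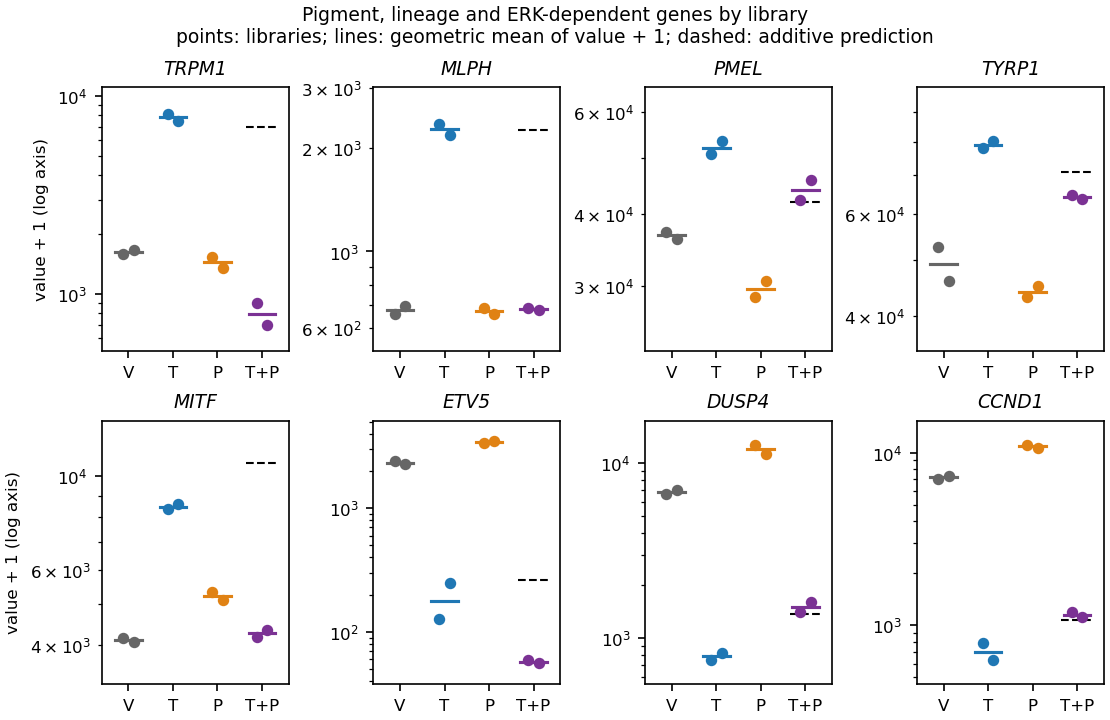
Normalised value + 1 (log axis) in each library for pigment, lineage and ERK-dependent genes, with vehicle (V), trametinib (T), panobinostat (P) and both (T+P). Points are libraries, lines geometric means of value + 1, and the dashed line is the additive prediction. TRPM1, MLPH, MITF and ETV5 lie below the dashed line, and PMEL, DUSP4 and CCND1 near it.

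Genes that report ERK activity were lowered by trametinib whether or not panobinostat was present. Of 20 tested, trametinib alone lowered 18 (27.4% of all genes), with a median of -3.49. On top of panobinostat it lowered 14 (13.1%), with a median of -3.29. DUSP6 and DUSP7 lay above additive and ETV5 below (5 above and 3 below without trametinib replicate 2, with a median of -0.06, and 1 to 8 and 1 to 3 over the 8 libraries left out in turn), with a median of 0.13. Of all genes 10.2% lay above and 9.04% below. For 5 of the 20 the interval lay within 2-fold, against 39.2% of all genes. When untransformed values were summed in place of logs, 2 lay above and 10 below. CCND1 encodes cyclin D1. The values were 7030.2 and 7329.5 in vehicle, 785 and 632 in the trametinib group, 11074 and 10677 in the panobinostat group and 1191 and 1114 in the combination. CCND1 thus had an interaction of 0.11, with a 95% interval of -0.20 to 0.42 (limma adjusted p = 0.618). DUSP4, a nuclear ERK phosphatase, was alike. Vehicle libraries held 6693 and 7080.1, trametinib libraries 751 and 817, panobinostat libraries 12726 and 11352 and combination libraries 1414 and 1617. The interaction of DUSP4 was 0.14 with a 95% interval from -0.13 to 0.42 (limma adjusted p = 0.453). MYC had a wider interval. It stood at 4021 and 4133 in vehicle cells, 53.2 and 32.1 after trametinib, 5921 and 6139 after panobinostat and 44.5 and 89.8 after both drugs. MYC thus had an interaction of 0.04, with a 95% interval of -0.93 to 1.00 (limma adjusted p = 0.962). Summing untransformed values put CCND1, DUSP4 and MYC below additive, by an interaction of -0.653, -0.833 and -0.755 as multiples of the mean value of each gene over the 8 libraries (limma adjusted p = 3.58e-05, 0.000104 and 0.000466). These 3 genes were named after their values were seen.

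ETV5, an ERK-driven ETS factor, fell further than the product. ETV5 measured 2409.8 and 2257 in vehicle, 126 and 249 under trametinib, 3343 and 3455 under panobinostat and 58.5 and 54.8 under both. Panobinostat alone was the highest group, and both combination libraries were the lowest of the 8. Its call below both drugs did not hold with each library left out. For ETV5, limma gave an interaction of -2.17 (SE 0.35, adjusted p = 0.00265). DUSP7, a cytoplasmic ERK phosphatase, lay between the single drugs in the combination. The values were 565 and 581 in vehicle, 143 and 126 in the trametinib group, 320.1 and 302 in the panobinostat group and 201 and 275 in the combination. DUSP7's interaction was 1.69 with an SE of 0.26 (limma adjusted p = 0.00204). DUSP6, the related ERK-specific one, was at 0 in both trametinib libraries. Vehicle libraries held 577 and 567, trametinib libraries 0 and 0, panobinostat libraries 627 and 583 and combination libraries 3.51 and 4.56. The combination values equal 3 reads each, so no fold is given, and its call (limma adjusted p = 0.0337) ended without any 1 of 5 libraries, reaching 0.229 without vehicle replicate 1.

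Of 19 AP-1 and immediate early genes, JUNB, JUND, ATF3 and IER5 lay above additive and KLF6 below (6 above and 1 below without trametinib replicate 2, and 1 to 6 and 1 to 3 over the 8 libraries left out in turn), with a median of 0.50. Calls over all genes were 10.2% above and 9.04% below. IER5, an inducible regulator of heat shock factor, was low with trametinib alone. It stood at 427 and 398 in vehicle cells, 49.1 and 25.1 after trametinib, 333 and 276 after panobinostat and 269 and 324 after both drugs. IER5 departed by an interaction of 3.47 (SE 0.42, limma adjusted p = 0.000501). KLF6, a zinc finger factor, rose with trametinib and less in the combination. KLF6 measured 1136 and 1165 in vehicle, 3576 and 3556 under trametinib, 1122 and 1128 under panobinostat and 2098 and 2083 under both. KLF6 had an interaction of -0.74 with an SE of 0.09 (limma adjusted p = 0.000646). The calls of JUNB, JUND and ATF3 each ended without at least 4 of the 8 libraries, with limma adjusted p up to 0.0941, 0.104 and 0.0803.

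In the cascade itself, ARAF, MAP2K2 and PTPN11 of 21 genes lay above and BRAF, KSR1, SOS1, NRAS and NF1 below (4 above and 6 below without trametinib replicate 2, and 0 to 5 and 1 to 6 over the 8 libraries left out in turn), with a median of -0.02, and for 15 of them the interval was within 2-fold. Of the 8 calls, only that of SOS1 held with any 1 library left out. Among all tested genes 10.2% lay above and 9.04% below, and 39.2% had an interval within 2-fold. SOS1 encodes the exchange factor that loads RAS. The values were 8318 and 8192 in vehicle, 5633 and 5898 in the trametinib group, 12232 and 12622 in the panobinostat group and 5916 and 5518 in the combination. Panobinostat alone raised it, and the combination overlapped with trametinib. For SOS1, limma gave an interaction of -0.60 (SE 0.08, adjusted p = 0.000753). The targets of trametinib are MEK1 and MEK2. MAP2K1 encodes MEK1. Vehicle libraries held 219 and 257, trametinib libraries 211 and 203, panobinostat libraries 274 and 229.9 and combination libraries 218 and 209.9. The interaction of MAP2K1 was -0.03 with a 95% interval from -0.60 to 0.54 (limma adjusted p = 0.941). MAP2K2, for MEK2, had an interaction of 0.72 (limma adjusted p = 0.0233), a call that ended without any 1 of 4 libraries and reached 0.108 without combination replicate 2.

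Among 21 receptor tyrosine kinases, ERBB3, MET, NTRK2 and DDR2 lay below additive and TYRO3 and EPHB4 above (3 above and 7 below without trametinib replicate 2, with a median of -0.11, and 0 to 6 and 2 to 7 over the 8 libraries left out in turn), with a median of 0.02, and after centring on the library medians none lay above and 5 below. The calls of MET and ERBB3 held with any 1 library left out. Those of NTRK2, DDR2, TYRO3 and EPHB4 did not, with limma adjusted p up to 0.0770, 0.133, 0.150 and 0.183. Background shares of calls over all genes were 10.2% above and 9.04% below. MET is the receptor for hepatocyte growth factor, which the liver makes. It stood at 5559.9 and 5446 in vehicle cells, 9197 and 9695 after trametinib, 4737 and 4893 after panobinostat and 1942 and 1783 after both drugs. Trametinib raised it alone and lowered it on top of panobinostat, by 0.78 and -1.37, and the combination was the lowest group without overlap. MET's interaction was -2.15 with an SE of 0.09 (limma adjusted p = 3.46e-06). ERBB3, the neuregulin receptor, rose with either drug. ERBB3 measured 351 and 339 in vehicle, 1343 and 1443 under trametinib, 778 and 755 under panobinostat and 1136 and 1216 under both. The combination lay below trametinib alone and above panobinostat alone. ERBB3 departed by an interaction of -1.39 (SE 0.13, limma adjusted p = 0.000138). NRG1, its ligand, was low with trametinib only. The values were 376 and 363 in vehicle, 30.1 and 50.2 in the trametinib group, 479 and 625 in the panobinostat group and 460.1 and 429 in the combination. The trametinib libraries lay below all others, and the combination overlapped neither them nor vehicle. NRG1 had an interaction of 2.91 with an SE of 0.35 (limma adjusted p = 0.000481). Without trametinib replicate 2 the interaction of NRG1 was 3.27.

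Downstream of the receptors, 2 of 26 PI3K, AKT and FOXO genes lay above additive, among them IRS2, and FOXO1, TSC1 and PIK3IP1 below (5 above and 10 below without trametinib replicate 2, and 1 to 5 and 3 to 10 over the 8 libraries left out in turn), with a median of -0.15. Set against these counts are 10.2% above and 9.04% below over all genes. IRS2 is the insulin receptor substrate. Vehicle libraries held 1908 and 2019.6, trametinib libraries 5329 and 4828, panobinostat libraries 3285 and 3265 and combination libraries 12100.4 and 12735. The combination exceeded both single drugs, with limma adjusted p = 4.3e-05 against the nearer one and 0.00997 at most with any 1 library left out. For IRS2, limma gave an interaction of 0.55 (SE 0.09, adjusted p = 0.00313). FOXO1, a factor that AKT keeps out of the nucleus, rose most with panobinostat alone. It stood at 412 and 472 in vehicle cells, 641 and 690.2 after trametinib, 1495 and 1608 after panobinostat and 1008 and 946 after both drugs. FOXO1's interaction was -1.26 with an SE of 0.15 (limma adjusted p = 0.000446).

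Of 19 genes of G alpha q signalling, PLCB1 and PRKCA lay above and PRKCB, RASGRP3 and RAC1 below (4 above and 5 below without trametinib replicate 2, and 1 to 5 and 2 to 6 over the 8 libraries left out in turn), with a median of -0.02. The shares over all genes were 10.2% above and 9.04% below. PRKCB is a protein kinase C that acts below mutant GNAQ. PRKCB measured 590.4 and 599 in vehicle, 1398 and 1550.2 under trametinib, 864 and 878 under panobinostat and 705 and 636 under both. PRKCB departed by an interaction of -1.69 (SE 0.14, limma adjusted p = 6.86e-05). PLCB1, a phospholipase that G alpha q activates, was lowest with trametinib. The values were 265 and 265 in vehicle, 118 and 113 in the trametinib group, 285 and 358 in the panobinostat group and 378 and 333 in the combination. PLCB1 had an interaction of 1.34 with an SE of 0.25 (limma adjusted p = 0.00557). GNAQ itself, mutated in many uveal melanomas, was not called. Vehicle libraries held 631 and 573, trametinib libraries 559.6 and 932, panobinostat libraries 532 and 532 and combination libraries 509 and 535. GNAQ thus had an interaction of -0.29, with a 95% interval of -0.93 to 0.34 (limma adjusted p = 0.511). The calls of PRKCA and RASGRP3 did not hold with each library left out, with limma adjusted p up to 0.0856 and 0.0733.

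Lysosome, autophagy and cholesterol genes had more calls below additive than above. Over all genes 9.04% lay below, with 9.28% at means of 200 to 1000 and 26.2% at means of 1000 or more. Means of at least 200 were held by 33 of 34 lysosome, 18 of 23 autophagy and 20 of 24 cholesterol genes. An interval within 2-fold was held by 39.2% of all genes. The part of expression level in these counts was not tested. Of 34 lysosome genes 8 lay below and 1 above (3 above and 14 below without trametinib replicate 2, and 0 to 3 and 6 to 14 over the 8 libraries left out in turn), with a median of -0.24, and 25 had an interval within 2-fold. TPP1, a lysosomal peptidase, was raised by either drug. It stood at 4207 and 4148 in vehicle cells, 16952 and 18294 after trametinib, 8067 and 7839.8 after panobinostat and 12085 and 12214 after both drugs. The combination lay between the single drugs. For TPP1, limma gave an interaction of -1.46 (SE 0.07, adjusted p = 6.61e-06). CTSF, a cathepsin, was alike in order. CTSF measured 213 and 215 in vehicle, 758 and 897 under trametinib, 387 and 428 under panobinostat and 622 and 601 under both. CTSF's interaction was -1.35 with an SE of 0.18 (limma adjusted p = 0.000967). The 1 member above, GLA, lost its call without vehicle replicate 2 (limma adjusted p = 0.0558).

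Of 23 autophagy genes 6 lay below and 1 above (1 above and 13 below without trametinib replicate 2, and 0 to 2 and 5 to 13 over the 8 libraries left out in turn), with a median of -0.54. WIPI1, which binds the early autophagosome membrane, rose with either drug and with both. The values were 234 and 217 in vehicle, 674 and 657 in the trametinib group, 743 and 625 in the panobinostat group and 734 and 622 in the combination. The 6 treated libraries overlapped. WIPI1 departed by an interaction of -1.57 (SE 0.19, limma adjusted p = 0.000528). NBR1, a cargo receptor, had lower values in the combination than with either drug, but its difference from both drugs did not pass. Vehicle libraries held 548 and 571, trametinib libraries 1183 and 1382, panobinostat libraries 912 and 931 and combination libraries 669.6 and 726. NBR1 had an interaction of -1.59 with an SE of 0.15 (limma adjusted p = 0.000125). SQSTM1, the related receptor, exceeded both drugs in the combination instead. It stood at 8734 and 9226 in vehicle cells, 10927 and 11931 after trametinib, 10761 and 10427 after panobinostat and 16229.5 and 17317 after both drugs. Its interaction of 0.32 lost its call without any 1 of 6 libraries, with a limma adjusted p of up to 0.127, and the difference from both single drugs held with any 1 library left out (0.0460 at most).

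Of 24 cholesterol genes 6 lay below and 1 above (1 above and 11 below without trametinib replicate 2, and 0 to 2 and 4 to 11 over the 8 libraries left out in turn), with a median of -0.32. Centring the libraries on their medians raised the 6 to 11. FDFT1, squalene synthase, was highest with trametinib alone. FDFT1 measured 3790.4 and 3644 in vehicle, 11516 and 11829 under trametinib, 4096 and 4128 under panobinostat and 8105 and 7628 under both. For FDFT1, limma gave an interaction of -0.72 (SE 0.08, adjusted p = 0.000273). INSIG1, which retains the sterol sensor in the endoplasmic reticulum, was the member above. Its call ended without any 1 of 3 libraries, with a limma adjusted p of up to 0.0898.

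With all 8 libraries, most calls of the MHC class I and interferon lists were below additive, where 9.04% of all genes lay. Of 20 MHC class I genes, 4 lay below, among them TAPBP, HLA-B and HLA-C, and none above (1 above and 5 below without trametinib replicate 2, and 0 to 1 and 2 to 6 over the 8 libraries left out in turn), with a median of -0.27, and 16 had an interval within 2-fold (39.2% of all genes). Means of at least 200 were held by 15 of the 20 MHC class I genes. Of all genes with means of 1000 or more, 26.2% lay below. The part of expression level was not tested. TAPBP, which loads peptide on class I molecules, rose most with trametinib alone. The values were 3707 and 3656 in vehicle, 8224 and 8054 in the trametinib group, 4353 and 4307 in the panobinostat group and 5324 and 5501 in the combination. TAPBP's interaction was -0.82 with an SE of 0.07 (limma adjusted p = 0.000104). HLA-C overlapped between the combination and trametinib. Vehicle libraries held 2643 and 2508, trametinib libraries 5192 and 6045, panobinostat libraries 4279.5 and 4636 and combination libraries 6288 and 5825. HLA-C departed by an interaction of -0.68 (SE 0.12, limma adjusted p = 0.00359). Of the 4 calls 2 held with any 1 library left out, those of TAPBP and HLA-C. The call of HLA-B ended without any 1 of 6 libraries, with a limma adjusted p of up to 0.0996. Of 22 interferon-stimulated genes STAT2, IFI6, IFITM2, IFITM3 and DDX58 lay below and IFI44L above (2 above and 6 below without trametinib replicate 2, and 0 to 3 and 1 to 9 over the 8 libraries left out in turn), with a median of -0.32 and 4 intervals within 2-fold, and the call of IFITM2 alone (-0.67, SE 0.12) held with any 1 library left out.

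Glycolysis and chaperone genes leaned above additive. Over all genes 10.2% lay above, and 16.9% of those with means of 1000 or more. Of 23 glycolysis genes 11 lay above and none below (11 above and 1 below without trametinib replicate 2, and 5 to 12 and 0 to 1 over the 8 libraries left out in turn), with a median of 0.32, and 7 lay above after centring on the medians. TKT, transketolase, was low with trametinib alone. It stood at 5659 and 5581 in vehicle cells, 2602 and 2766 after trametinib, 5857 and 5906 after panobinostat and 5444 and 5516 after both drugs. TKT had an interaction of 0.96 with an SE of 0.08 (limma adjusted p = 6.52e-05). GAPDH, often used as a reference gene, was lowest with trametinib alone too. GAPDH measured 76299 and 71829 in vehicle, 32468 and 38224 under trametinib, 58833 and 61974 under panobinostat and 52707 and 52436 under both. For GAPDH, limma gave an interaction of 0.87 (SE 0.10, adjusted p = 0.000441). ENO1, enolase, stayed low in the combination. The values were 8212 and 7898 in vehicle, 2048 and 2513 in the trametinib group, 5037 and 5085 in the panobinostat group and 2601 and 2676 in the combination. ENO1's interaction was 0.89 with an SE of 0.12 (limma adjusted p = 0.00117). Of 22 chaperone genes 12 lay above and CRYAB below (14 above and 1 below without trametinib replicate 2, and 9 to 15 and 1 to 2 over the 8 libraries left out in turn), with a median of 0.48, and 10 lay above after centring. HSP90AA1, the inducible HSP90, was lowest with trametinib. Vehicle libraries held 15603 and 15581, trametinib libraries 4399 and 4026, panobinostat libraries 11189 and 11799.5 and combination libraries 6109.9 and 6001. HSP90AA1 departed by an interaction of 0.97 (SE 0.08, limma adjusted p = 7.84e-05). CCT2, a subunit of the chaperonin that folds actin and tubulin, was alike. It stood at 2149 and 1906 in vehicle cells, 864 and 900.2 after trametinib, 1141 and 1183 after panobinostat and 982 and 1071 after both drugs. CCT2 had an interaction of 1.02 with an SE of 0.13 (limma adjusted p = 0.000656).

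Nucleolar genes of ribosome synthesis mostly fell with trametinib in either setting. Trametinib alone lowered 25 of 26 nucleolar genes (27.4% of all genes) and on top of panobinostat also 25 (13.1%). NCL, NPM1, FBL and UTP20 lay above additive and none below (8 above and 3 below without trametinib replicate 2, and 2 to 13 and 0 to 3 over the 8 libraries left out in turn), with a median of 0.33, and after centring 3 lay above and 2 below. The background over all genes was 10.2% above and 9.04% below. NCL, nucleolin, overlapped between the trametinib and combination groups. NCL measured 12317 and 12235 in vehicle, 2633 and 2601 under trametinib, 6210.3 and 7138 under panobinostat and 2641 and 2606 under both. For NCL, limma gave an interaction of 0.89 (SE 0.10, adjusted p = 0.000309). NPM1, nucleophosmin, was lowest in the combination, but its call below both drugs did not hold with each library left out. The values were 13135 and 12289.5 in vehicle, 4480.1 and 4453 in the trametinib group, 6635 and 7004 in the panobinostat group and 3402 and 3577 in the combination. NPM1's interaction was 0.54 with an SE of 0.08 (limma adjusted p = 0.00177). FBL and UTP20 lost their calls without any 1 of 4 and 6 libraries, with limma adjusted p up to 0.0694 and 0.181. ODC1, a MYC target that makes polyamines, lay above. Vehicle libraries held 1252 and 1272, trametinib libraries 305 and 328, panobinostat libraries 845 and 650.4 and combination libraries 575 and 629.8. ODC1 departed by an interaction of 1.69 (SE 0.19, limma adjusted p = 0.000351). In the MYC network of 11 genes, MAX, MXD4, MXI1 and MNT, the partner and the antagonists of MYC, lay below (2 above and 6 below without trametinib replicate 2, and 1 to 2 and 2 to 7 over the 8 libraries left out in turn), with a list median of -0.68. MXI1, an antagonist, was highest with trametinib. It stood at 238 and 227 in vehicle cells, 947 and 767 after trametinib, 491 and 492 after panobinostat and 678 and 721 after both drugs. MXI1 had an interaction of -1.36 with an SE of 0.18 (limma adjusted p = 0.000942). MXD4 and MNT lost their calls without any 1 of 6 and 3 libraries, with limma adjusted p up to 0.100 and 0.0576.

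CDKN1A, the p21 inhibitor of cyclin-dependent kinases, reached its highest level in the combination. CDKN1A measured 2564 and 2601 in vehicle, 1855 and 2158 under trametinib, 3579 and 3611 under panobinostat and 5237 and 5223 under both. Trametinib lowered it alone and raised it on top of panobinostat, by -0.37 and 0.54. For CDKN1A, limma gave an interaction of 0.91 (SE 0.11, adjusted p = 0.000429), above additive like 10.2% of all genes. The combination also exceeded both single drugs (limma adjusted p = 0.00474), a difference that did not pass without combination replicate 2 (0.0787). Of 7 CDK inhibitors, 6 had their highest mean in the combination (26% of all genes), and CDKN1A and CDKN2C lay above additive (4 above and 1 below without trametinib replicate 2, and 1 to 4 and 0 to 1 over the 8 libraries left out in turn). CDKN2C lost its call without any 1 of 6 libraries, with a limma adjusted p of up to 0.114.

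Of 20 p53 targets, MDM2, BAX, TNFRSF10B, PPM1D and DDB2 lay above additive and TP53INP1 below (8 above and 1 below without trametinib replicate 2, and 2 to 10 and 1 over the 8 libraries left out in turn), with a median of 0.52, and 11 had their highest mean in the combination, against 26% of all genes. In the whole set of tested genes 10.2% lay above and 9.04% below. MDM2 encodes the ligase that degrades p53. The values were 1917 and 1881 in vehicle, 1432 and 1288 in the trametinib group, 2025 and 2138 in the panobinostat group and 2576 and 2726 in the combination. MDM2's interaction was 0.83 with an SE of 0.11 (limma adjusted p = 0.000811). BAX, the pore former of apoptosis, was lowest with trametinib. Vehicle libraries held 592 and 636, trametinib libraries 354 and 352, panobinostat libraries 443 and 454 and combination libraries 475 and 539. BAX departed by an interaction of 0.97 (SE 0.17, limma adjusted p = 0.00386). TP53INP1, a stress-induced cofactor, rose in each drug group and most in the combination. Its call above both drugs did not hold with each library left out. It stood at 315 and 332 in vehicle cells, 1728 and 1826 after trametinib, 807 and 797 after panobinostat and 2491 and 2614 after both drugs. TP53INP1 had an interaction of -0.79 with an SE of 0.12 (limma adjusted p = 0.00165). On the untransformed scale its interaction was 0.217 (limma adjusted p = 0.0958). TNFRSF10B, PPM1D and DDB2 lost their calls without any 1 of 4, 5 and 3 libraries, with limma adjusted p up to 0.0729, 0.0667 and 0.0673.

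Calls in the BCL2 family depended on the libraries and the scale. Of 11 pro-apoptotic genes BMF and BNIP3L lay below (4 above and 2 below without trametinib replicate 2, and 0 to 4 and 1 to 2 over the 8 libraries left out in turn), with a median of 0.51. Of 7 anti-apoptotic genes BCL2L1 did (1 above and 1 below without trametinib replicate 2, and 0 to 2 and 0 to 2 over the 8 libraries left out in turn), with a median of 0.18. None was called above with all 8 libraries, against 10.2% of all genes, and untransformed values put 4 pro-apoptotic genes and 1 anti-apoptotic gene above. BMF, a BH3-only protein, climbed in steps. BMF measured 214 and 207 in vehicle, 1712 and 1663 under trametinib, 548 and 614 under panobinostat and 3491 and 3202 under both. The combination lay above both drugs with limma adjusted p = 0.000899, and 0.0314 at most with any 1 library left out. Its interaction of -0.47 on the log scale lost its call without any 1 of 6 libraries (limma adjusted p up to 0.147). On the untransformed scale it lay above additive, with an interaction of 0.885 (limma adjusted p = 9.57e-05). BNIP3L, a mitophagy receptor, overlapped between trametinib and the combination. The values were 666 and 626 in vehicle, 2203 and 1932 in the trametinib group, 1056 and 1204 in the panobinostat group and 2041 and 1935 in the combination. For BNIP3L, limma gave an interaction of -0.86 (SE 0.14, adjusted p = 0.00258). BCL2L1, which encodes BCL-XL, lost its call without any 1 of 6 libraries, with a limma adjusted p of up to 0.144.

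The combination went beyond both single drugs in 223 genes upward (1.67%) and 268 downward (2.01%), of which 35 and 37 kept that call with any 1 library left out. CYP1B1, a cytochrome P450 that oxidises steroids and aryl hydrocarbons, was far higher in the combination than in any other library. Vehicle libraries held 166 and 115, trametinib libraries 155 and 317, panobinostat libraries 180.4 and 205 and combination libraries 2176 and 1952. The difference from the nearer drug was 3.21 (limma adjusted p = 0.000837). CYP1B1's interaction was 2.73 with an SE of 0.43 (limma adjusted p = 0.00214). DIO2, the deiodinase that activates thyroid hormone, was also high in the combination. It stood at 42.7 and 51.5 in vehicle cells, 41.1 and 232 after trametinib, 49.95 and 52.4 after panobinostat and 1767 and 1891 after both drugs. DIO2 departed by an interaction of 4.08 (SE 0.86, limma adjusted p = 0.0102). Without trametinib replicate 2, which held 232, the interaction was 5.32, and the call ended without any 1 of 3 libraries (limma adjusted p = 0.0678 at most). NTS, the neurotensin precursor, was at 1.81 and 4.75 in vehicle, 3.01 and 0 after trametinib, 27.5 and 36.3 after panobinostat, and 461 and 424 after both. Its interaction of 4.77, or 3.77 without trametinib replicate 2, lost its call without any 1 of 5 libraries (limma adjusted p = 0.0989 at most). The differences of DIO2 and NTS from both drugs did not hold either, with limma adjusted p up to 0.108 and 0.319.

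Among YAP and TEAD genes, YAP1, CYR61, AJUBA and FOXF2 of 18 lay above additive and AMOTL1 below (6 above and 2 below without trametinib replicate 2, and 4 to 8 and 0 to 2 over the 8 libraries left out in turn), with a median of 0.42, and the 4 above held with any 1 library left out, while AMOTL1 did not (limma adjusted p up to 0.0796). For comparison, 10.2% of all genes lay above and 9.04% below. CYR61, a secreted YAP target, fell with each drug and rose with both. CYR61 measured 634 and 646 in vehicle, 388 and 327 under trametinib, 396 and 459 under panobinostat and 1132 and 1287 under both. CYR61 had an interaction of 2.34 with an SE of 0.19 (limma adjusted p = 6.31e-05). FOXF2, a forkhead factor, was lowered by panobinostat alone. The values were 686 and 699.9 in vehicle, 1076 and 1011 in the trametinib group, 406 and 406 in the panobinostat group and 2249 and 2140.4 in the combination. On top of trametinib panobinostat raised it, by 1.07 against -0.77 alone. For FOXF2, limma gave an interaction of 1.84 (SE 0.12, adjusted p = 2.14e-05).

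**Figure D5:**
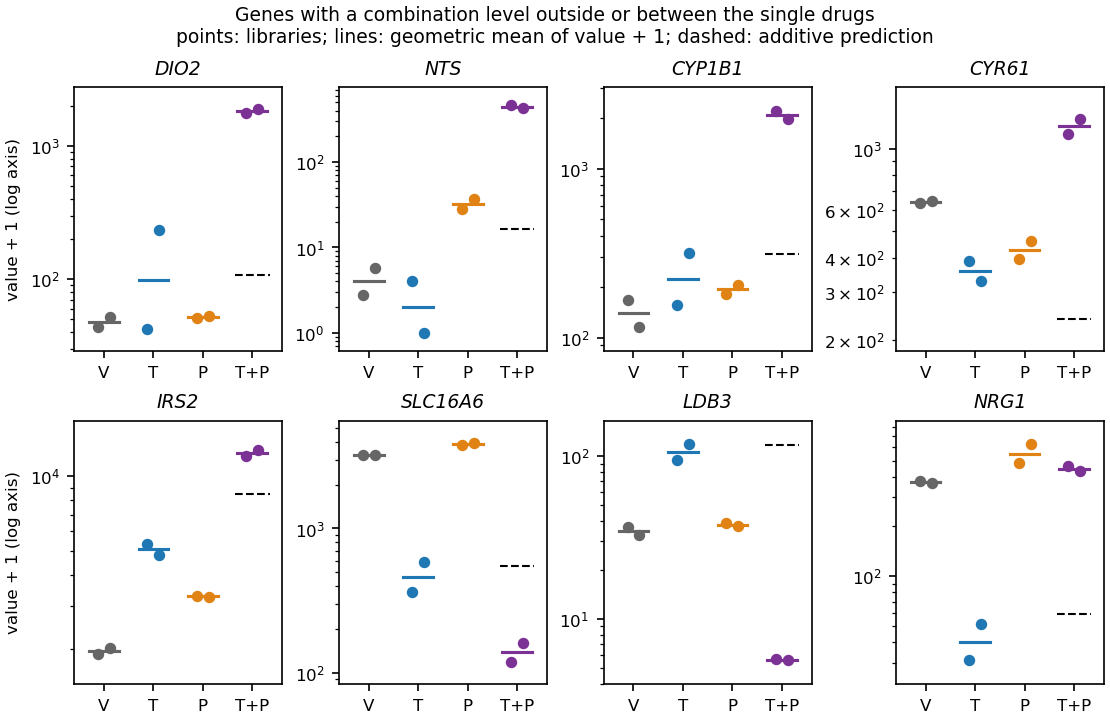
Normalised value + 1 (log axis) in each library for 8 genes, with vehicle (V), trametinib (T), panobinostat (P) and both (T+P). Points are libraries, lines geometric means of value + 1, and the dashed line is the additive prediction. DIO2, NTS, CYP1B1, CYR61 and IRS2 are highest in the combination, SLC16A6 and LDB3 lowest there, and NRG1 is low only with trametinib.

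Downward, SLC16A6, a transporter of the monocarboxylate family, fell with trametinib and lay lower still in the combination. Vehicle libraries held 3234 and 3214, trametinib libraries 363 and 585, panobinostat libraries 3791 and 3917 and combination libraries 118 and 159.7. SLC16A6's interaction was -2.0 with an SE of 0.29 (limma adjusted p = 0.00142). Its difference from both drugs had a limma adjusted p of 0.0021, or 0.0522 without combination replicate 1. LDB3, a Z-disc protein of muscle, fell to a few reads in the combination. It stood at 35.5 and 31.7 in vehicle cells, 94.3 and 118 after trametinib, 37.7 and 36.3 after panobinostat and 4.68 and 4.56 after both drugs. LDB3 departed by an interaction of -4.38 (SE 0.69, limma adjusted p = 0.00227). Its difference from both drugs did not pass without panobinostat replicate 1 (0.132). KCNQ5, a potassium channel subunit, was lowest in the combination. KCNQ5 measured 1174 and 1156 in vehicle, 1278 and 1322 under trametinib, 1036 and 1044 under panobinostat and 499 and 513 under both. KCNQ5 had an interaction of -1.20 with an SE of 0.12 (limma adjusted p = 0.000155). ATF4, the factor of the integrated stress response, was lowest there too. The values were 3913 and 3898 in vehicle, 3656 and 3839 in the trametinib group, 3241 and 3112 in the panobinostat group and 2118 and 2127 in the combination. For ATF4, limma gave an interaction of -0.52 (SE 0.08, adjusted p = 0.00239). FAM129A and LRRN3 upward and DUSP2 downward went beyond both drugs while their interaction did not pass (limma adjusted p = 0.105, 0.14 and 0.116). STAT5A and PCDHGC3 also lay below both single drugs, and lost that call with 1 library left out (limma adjusted p up to 0.126 and 0.115), as did FAM129A, LRRN3 and DUSP2 (up to 0.185, 0.0646 and 0.0981).

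The 12 largest departures above additive were genes that trametinib lowered, many to a few reads. For CDC25C, CNKSR2, MYO3A and CADM1 both trametinib libraries were at 0, and the interaction was at least 4.90, 3.86, 3.69 and 3.62 (log2) against a floor of 3 reads per library. CADM1, an adhesion molecule, shows the shape. Vehicle libraries held 50.6 and 50.7, trametinib libraries 0 and 0, panobinostat libraries 175 and 150.2 and combination libraries 138 and 175. Vehicle lay below the panobinostat and combination libraries. CNKSR2, a scaffold protein of the RAS pathway in neurons, had combination values on both sides of vehicle. It stood at 93.9 and 103 in vehicle cells, 0 and 0 after trametinib, 123 and 149 after panobinostat and 50.3 and 125 after both drugs. Summed on the untransformed scale, CNKSR2, MYO3A and CADM1 no longer passed (limma adjusted p = 0.384, 0.105 and 0.416). FAM173A and NEURL1B had trametinib replicate 2 at 0, with interactions of 6.07 and 5.52, or 5.27 and 4.12 without it. HIST1H4C, KIF20B and ERCC6L went from 7.09, 6.05 and 5.51 to 4.44, 3.97 and 4.11 without that library, and each lost its call without any 1 of 6 others, with limma adjusted p up to 0.106, 0.0868 and 0.0654. HIST1H2AB and HIST1H3H complete the 12 together with BUB1B.

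The largest departures below additive included genes that trametinib raised from low values. ADAMTS14, a procollagen protease, was high with trametinib alone. ADAMTS14 measured 3.61 and 2.38 in vehicle, 227 and 310.4 under trametinib, 9.17 and 4.03 under panobinostat and 1.17 and 7.61 under both. ADAMTS14's interaction was -6.80 with an SE of 1.27 (limma adjusted p = 0.00553). With 1 read worth 0.602 to 1.52, its values outside the trametinib group were low counts, so this size is uncertain. PDZD2, a PDZ domain protein, kept part of its rise in the combination. The values were 30.1 and 26.1 in vehicle, 1030.0 and 1099 in the trametinib group, 57.1 and 65.5 in the panobinostat group and 174 and 208 in the combination. PDZD2 departed by an interaction of -3.57 (SE 0.33, limma adjusted p = 0.000124). ZNF469, linked to corneal collagen, rose with either drug and was low with both. Vehicle libraries held 9.63 and 5.54, trametinib libraries 104 and 182, panobinostat libraries 58.1 and 44.4 and combination libraries 10.5 and 22.8. ZNF469 had an interaction of -5.70 with an SE of 0.83 (limma adjusted p = 0.00148). TMOD1, which caps actin filaments, had an interaction of -3.46. NOX5, NTRK2, FBXL7, ST6GALNAC2, DDX58, EFCAB5 and LINC00173 were also among the 12 with LDB3, and each lost its call without any 1 of at least 4 libraries, with limma adjusted p up to between 0.0750 and 0.182. NOX5 was at 0 in both combination libraries and in trametinib replicate 1, so no fold is given. On the untransformed scale FBXL7 and LINC00173 no longer passed (limma adjusted p = 0.601 and 0.867).

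Matrix genes leaned below additive. Over all genes 9.04% lay below, and 26.2% of those with means of 1000 or more. Of 22 mesenchymal genes 8 lay below additive and CDH2 and LOX above (2 above and 9 below without trametinib replicate 2, and 0 to 5 and 6 to 11 over the 8 libraries left out in turn), with a median of -0.24. CDH2 and LOX each lost the call without any 1 of 6 libraries, with limma adjusted p up to 0.131 and 0.224. SNAI2, a neural crest factor, was highest with trametinib alone. It stood at 3599 and 3714 in vehicle cells, 10786 and 10942 after trametinib, 5061 and 5035 after panobinostat and 4618 and 4126 after both drugs. For SNAI2, limma gave an interaction of -1.78 (SE 0.09, adjusted p = 6.61e-06). TIMP2 inhibits matrix metalloproteases. TIMP2 measured 20071 and 20273 in vehicle, 54099.9 and 52917 under trametinib, 23239 and 23846 under panobinostat and 32767 and 32469 under both. TIMP2's interaction was -0.94 with an SE of 0.06 (limma adjusted p = 1.59e-05). COL1A1, a fibroblast marker, overlapped between trametinib and each of the other drug groups, and was higher in both combination libraries than in both panobinostat libraries. The values were 133 and 149 in vehicle, 511 and 821 in the trametinib group, 509.7 and 593 in the panobinostat group and 608 and 774 in the combination. COL1A1 departed by an interaction of -1.88 (SE 0.31, limma adjusted p = 0.00293). Of the other fibroblast markers, THY1 was at 0, DCN and PDGFRB were at most 10.5 in any library, and COL3A1 was at 21.1 and 18.3 in the combination and at most 4.08 elsewhere. The summed fibroblast markers, carried by COL1A1 and LUM, were 391 and 409 in vehicle, 761 and 989.6 after trametinib, 974 and 1000.3 after panobinostat, and 1239 and 1295 after both, and their part in the result was not tested. Of 21 integrin and laminin genes ITGAV and LAMA1 lay above and ITGA3, ITGA9 and LAMB2 below (4 above and 5 below without trametinib replicate 2, and 0 to 4 and 3 to 5 over the 8 libraries left out in turn), with a median of 0.06. ITGA3, a laminin receptor, was high with panobinostat alone. Vehicle libraries held 515 and 494, trametinib libraries 539.6 and 710.3, panobinostat libraries 2253 and 2165 and combination libraries 883 and 817. ITGA3 had an interaction of -1.67 with an SE of 0.18 (limma adjusted p = 0.000291). The calls of ITGAV and LAMA1 ended without any 1 of 6 and 2 libraries, with limma adjusted p up to 0.187 and 0.0530.

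Counts in the lists that remain are set against 10.2% above and 9.04% below over all genes. These shares rose with expression level. At means of 10 to 50 they were 2.39% above and 0.573% below, and at means of 1000 or more 16.9% and 26.2%. The 95% interval lay within 2-fold of additive for 39.2% of all genes. Its width followed level, with a median SE of 1.26 at means of 10 to 50 and 0.122 at 1000 or more. All tested oxidative phosphorylation, proteasome and cytosolic ribosomal protein genes had means of at least 200. The part of expression level in the counts was not tested. Of 29 nuclear genes of oxidative phosphorylation, NDUFS3 lay above (limma adjusted p up to 0.170 with 1 library left out) and none below (5 above and 4 below without trametinib replicate 2, and 0 to 8 and 0 to 4 over the 8 libraries left out in turn), and 25 had an interval within 2-fold. Of 23 proteasome genes PSMA2, PSMB1, PSMC2 and PSMD11 lay above (8 above and 0 below without trametinib replicate 2, and 0 to 8 and 0 over the 8 libraries left out in turn), none after centring, and 22 were within 2-fold. Of 27 cytosolic ribosomal protein genes 8 lay above and RPS23 below (11 above and 2 below without trametinib replicate 2, and 4 to 11 and 0 to 4 over the 8 libraries left out in turn), or 4 and 4 after centring, and 26 were within 2-fold. Of 25 neuronal genes, many of which panobinostat raised (12 alone and 14 on top of trametinib), NEFH lay above and SLC17A7 below (7 above and 2 below without trametinib replicate 2, and 1 to 7 and 0 to 6 over the 8 libraries left out in turn), and 6 had an interval within 2-fold. SLC17A7 lost its call with 1 library left out (limma adjusted p up to 0.162). Panobinostat raised 15% of all genes alone and 17.6% on top of trametinib. NEFH, the heavy neurofilament, was lowest with trametinib. It stood at 1633 and 1723 in vehicle cells, 156 and 102 after trametinib, 821 and 765 after panobinostat and 373 and 374 after both drugs. For NEFH, limma gave an interaction of 2.63 (SE 0.25, adjusted p = 0.000149). None of the 3 tested metallothioneins was called with all 8 libraries, with a median of 2.43, and 2 were called above without trametinib replicate 1 and also without trametinib replicate 2. Of 28 genes of the unfolded protein and integrated stress response, HSP90B1, SDF2L1 and PDIA4 lay above and ATF4, PSAT1 and SLC7A5 below (5 above and 6 below without trametinib replicate 2, and 2 to 7 and 3 to 7 over the 8 libraries left out in turn). Of 15 lipid synthesis genes, ELOVL5 and PLIN2 lay above and ACACA, ACACB and ACSL3 below (3 above and 5 below without trametinib replicate 2, and 0 to 6 and 1 to 5 over the 8 libraries left out in turn). Among 19 potassium channels 1 lay above and KCNQ5, KCNAB2 and KCNS3 below (4 above and 6 below without trametinib replicate 2, and 0 to 5 and 2 to 7 over the 8 libraries left out in turn), and among 15 secreted factors NRG1 above and CXCL12, VEGFB and SEMA3C below (2 above and 3 below without trametinib replicate 2, and 1 to 4 and 0 to 3 over the 8 libraries left out in turn). KCNS3 and SEMA3C had the opposite sign on the untransformed scale.

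The class I targets of panobinostat were not called. HDAC1, HDAC2 and HDAC3 had interactions of 0.08, 0.20 and 0.21, each with a 95% interval within 2-fold. Of 18 histone deacetylases HDAC4 and HDAC6 lay below and SIRT7 above (2 above and 2 below without trametinib replicate 2, with a median of -0.02, and 0 to 3 and 1 to 2 over the 8 libraries left out in turn), with a median of 0.03. All lists of this paragraph are set against 10.2% above and 9.04% below over all genes. HDAC4, of class II, had its lowest values in the combination, but its difference from both drugs did not pass. HDAC4 measured 969 and 999 in vehicle, 1523 and 1687 under trametinib, 781 and 833 under panobinostat and 639 and 699.8 under both. HDAC4's interaction was -0.97 with an SE of 0.13 (limma adjusted p = 0.00112). HDAC6 and SIRT7 lost their calls without any 1 of 4 and 3 libraries, with limma adjusted p up to 0.125 and 0.0913. Of 15 acetyltransferases and BET readers 4 lay below, among them NCOA3, BRD3 and EP300, and HAT1 and KAT2B above (2 above and 4 below without trametinib replicate 2, and 1 to 2 and 3 to 4 over the 8 libraries left out in turn), with a median of -0.07. HAT1, which acetylates new histones before they are placed on DNA, was lowest with trametinib alone. The values were 657 and 680.1 in vehicle, 226 and 148 in the trametinib group, 314 and 371 in the panobinostat group and 269 and 299.7 in the combination. HAT1 departed by an interaction of 1.60 (SE 0.29, limma adjusted p = 0.00453). EP300 and KAT2B lost their calls with 1 library left out, with limma adjusted p up to 0.174 and 0.178. Marker genes of metastatic risk in uveal melanoma were mixed. Of 8 class 1 markers, ID2 lay above and MTUS1, ROBO1 and SATB1 below, and of 3 class 2 markers HTR2B and RAB31 lay above and ECM1 below (2 above and 1 below without trametinib replicate 2, and 2 and 0 to 1 over the 8 libraries left out in turn). HTR2B, a serotonin receptor, was lowest with trametinib alone. Vehicle libraries held 825 and 793, trametinib libraries 399 and 352, panobinostat libraries 652 and 499 and combination libraries 739 and 625. HTR2B had an interaction of 1.36 with an SE of 0.21 (limma adjusted p = 0.00216). ID2 and SATB1 kept their calls with any 1 library left out, and MTUS1, ROBO1 and ECM1 did not, with limma adjusted p up to 0.0568, 0.0903 and 0.126.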

How the data were processed

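Per the labels' protocols, libraries of 92.1 RNA came from a NuGEN kit (Ovation Human FFPE). The submitters' processing notes list TopHat2 2.0.13, Cufflinks 2.2.1 and DESeq2 (version not given in the sources used here), and give hs37d5 as a build for 4 libraries, those of vehicle and trametinib. Annotation and strand setting are not given in the sources used here. Each deposited signal value is a read count of 1 gene in 1 library, normalised by the authors. Dividing by the value of 1 read gave whole reads for 100% of values within 1e-06, so depth could be recovered.

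Genes with a mean of at least 10 over the 8 libraries (13320 of 18406) were fitted on log2(value + 1) with limma 3.58.1 in R 4.3.3, with group means, an intensity trend and Benjamini-Hochberg adjustment over all tested genes (threshold 0.05). Beyond both drugs means that the combination differed from each single drug in the same direction, tested by the larger p. The comparison with trametinib runs between the sets of libraries, and cannot be told apart from a difference between them. edgeR 4.0.16 and DESeq2 1.42.0 were run on the recovered reads as alternatives, and edgeR called 1366 genes above and 1381 below. An exact permutation test of 2 libraries against 2 cannot go below p = 0.333 (two-sided), so none is given. For genes at 0 in both libraries of a group, bounds use a floor of 3 reads per library, which covers counting error only.

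The members and the 43 gene lists (952 entries, 922 in the table, 836 tested) were chosen with earlier results of these data known. Genes were named by rule: the 12 largest calls in each direction that also pass without trametinib replicate 2, have a group mean of at least 50 and the same sign in all 16 choices of 1 library per group (clone names, small and antisense RNAs and ribosomal protein genes left out), the 5 furthest beyond both drugs in each direction, up to 3 with the lowest p per list, and 8 drug targets and readouts. Others were chosen after their values were seen, to complete small counts or describe gene groups. Symbols are those of the table. Near-identical copies (histones, HLA, heat shock genes) and overlapping or antisense genes are uncertain. Promoter windows are from RefSeq. A few list members are counted but not reported here by name.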

Additional observations from a re-analysis of the deposited data

How the results depend on the processing

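Of the counts over all genes, those above and below additive kept within 1.5 times of 1361 and 1204 under other pseudocounts, filters, TMM, median centring, edgeR and DESeq2, and fell to 862 and 738 with limma without an intensity trend. Leaving out 1 library gave 617 to 3690 above and 690 to 2525 below, and 414 to 2259 and 323 to 1014 for calls of at least 2-fold. The highest came without trametinib replicate 1. Genes beyond both drugs numbered 28 higher and 15 lower without the trend, 441 and 489 with DESeq2, and 39 to 623 and 51 to 709 with 1 library left out. Genes within 2-fold of additive stayed within 1.5 times of 5217, but were not counted with edgeR, which gives no interval. On the untransformed scale only the calls above and below were counted. Of 222 genes followed, 9 that passed on either scale changed sign there, as a share of each gene's mean: DUSP6 -0.0976, TP53INP1 0.217, BMF 0.885, CCND1 -0.653, DUSP4 -0.833, MYC -0.755, SLC17A7 0.568, KCNS3 0.195 and SEMA3C 0.507. No gene that passed in the main fit or in another alternative changed sign between them. Sign changes of genes that passed in neither fit were not counted. With edgeR 216 genes kept their side of the threshold, and without the trend 144. The cause of these differences was not tested. Depth limits low genes: with means of 10 to 50 the median SE of the interaction was 1.26, against 0.122 in the highest class of level.

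Deviations of equal replicate numbers correlated at -0.0235 to 0.0218 between groups, so equal numbers showed little shared deviation in expression. Whether libraries of equal number were grown or prepared together cannot be read from these values. With the replicate block 1296 genes lay above and 1122 below, and 2340 of the 2565 calls were kept in the same direction.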
